A study of Mus musculus with 6 samples.

Results

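The 31 genes described here make cholesterol, sense it or move it. Of these, 18 encode enzymes of its synthesis from acetyl-CoA, 6 encode the SREBP transcription factors and proteins around them, and 7 act in efflux and transport. They were taken from a list of gene symbols, with no threshold on their values, and matched through RefSeq accessions to 48 probes. All 31 could be tested, out of 19741 genes and transcripts tested on these arrays.

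The miR-29 group was primary C57BL/6 mouse astrocytes, from cortex at embryonic day 18, transfected with miR-29 precursors, of which miR-29a, 29b and 29c made up 1, 2 and 1 parts. The control group was the same purchased culture given a negative control precursor. Both groups were transfected at 80 nM, 3 weeks after plating, and harvested after 48 h, with an efficiency above 90% per the labels. Each group has 3 one-colour arrays from RNA extracted in triplicate. No label says that the extractions came from separate cultures, so p-values here measure the spread between samples that may be technical repeats.

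Cells make cholesterol through the mevalonate pathway, in which acetyl-CoA is built up to isoprenoids, then squalene, then lanosterol, and trimmed to cholesterol. When membranes of the endoplasmic reticulum are poor in sterol, Scap carries the SREBP proteins to the Golgi, where they are cut into active transcription factors that turn on most genes of the pathway. The Insig proteins hold Scap back when sterol is plentiful, and oxysterols then activate the liver X receptors, which raise efflux genes. In brain, astrocytes make much of the cholesterol and pass it to neurons on apolipoprotein E particles.

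The mature miR-29 sequences below are those of mouse, from RefSeq with build GRCm38.p6, and the labels give the transfected precursors their human names. They are shown because the 3 family members share 1 seed, the stretch that pairs with target messenger RNAs. Capitals mark the seed, bases 2 to 8. Counted from the 5′ end and with the miR-29a base first, miR-29c differs from miR-29a by C10U. Likewise miR-29b differs from miR-29a over its first 22 bases by C10U, G18A, U21G and A22U, and it is 23 bases long. miR-29a is encoded at chr6:31062673-31062694 on the minus strand and miR-29c at chr1:195037600-195037621 on the plus strand, while miR-29b has a copy beside each of them.
miR-29a-3p: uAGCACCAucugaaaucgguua
miR-29b-3p: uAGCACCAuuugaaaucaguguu
miR-29c-3p: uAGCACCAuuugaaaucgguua

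Levels below are the log2 of the processed signal minus the 75th percentile of that array, so a level of 0 is as bright as that percentile. Fold changes are log2 differences, miR-29 minus control, with the standard error (SE) of a fit over all genes and a Benjamini-Hochberg adjusted p. Each array had 62% to 66.8% of its probes well above background, a 75th percentile of 501.2 to 662.7 and 0 saturated spots. Across genes, arrays correlated at 0.994 to 0.998 within a group and at 0.975 to 0.985 between groups. The 3 miR-29 arrays shared slide 1 with control replicate 1, and control replicates 2 and 3 were on slide 2. Collagen genes that miR-29 is known to target checked the transfection. The brightest probes of Col1a1, Col3a1 and Col4a1 were lower by a log2 of -1.28, -3.55 and -0.77. Other probes gave larger falls for Col1a1 (-3.93 and -3.25) and Col4a1 (-1.84) and a smaller one for Col3a1 (-2.37). The brightest probe thus does not always show the largest change.

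Markers were used to check the cell type. All 12 astrocyte markers were well above background on all 6 arrays, with a summed level of 109 to 121 times the 75th percentile on the miR-29 arrays, against 76.9 to 80.5 on the control arrays. Of 11 microglial markers on the array, 4 were detected on all 6 arrays and 6 on none (Aif1, C1qa, C1qc, Cx3cr1, Ptprc and Trem2), and their sum was 3.28 to 3.53 on the miR-29 arrays, against 4.39 to 4.88 on the control arrays. Of 12 fibroblast and mural markers 10 were detected on all 6 arrays. Their sum was 581 to 628 on the miR-29 arrays, against 709 to 769 on the control arrays. Without the 2 type I collagen genes it was 470 to 508 on the miR-29 arrays, against 318 to 356 on the control arrays. With or without them, it was above the astrocyte sum on every array. All these sums add levels on a linear scale, so the brightest genes weigh most. Acta2 and Tagln made up most of the sum without type I collagen. Their mean log2 levels were 7.9 and 7.4 on the miR-29 arrays, against 7.3 and 6.7 on the control arrays. The neuronal marker sum was 6.92 to 7.12 on the miR-29 arrays, against 8.55 to 9.19 on the control arrays, with 9 of 12 markers detected on all 6 arrays. The oligodendrocyte lineage sum, with 10 of 12 markers detected, was 10.4 to 10.9 on the miR-29 arrays, against 9.43 to 14 on the control arrays. The endothelial sum, with 5 of 10 detected, was 3.22 to 3.49 on the miR-29 arrays, against 3.52 to 3.98 on the control arrays. Every list held markers of both directions. Of 12 astrocyte markers tested, 1 fell and 8 rose. Of 10 neuronal markers 5 fell and 3 rose, and of 4 microglial markers 2 fell and 1 rose. For fibroblast and mural markers it was 3 and 5 of 10, for oligodendrocyte lineage 2 and 5 of 10, and for endothelial 2 and 3 of 6. Over all genes 22.8% fell and 35.3% rose. The part of the shifts in these sums in the results below was not tested. In such bulk samples, fewer cells of a type and less RNA per cell cannot be told apart.

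The cholesterol genes did not move as a block. Of the 31, 8 fell, 12 rose and 11 missed an adjusted p of 0.05, so 64.5% were called. Over all tested genes 58.1% were called, 22.8% lower and 35.3% higher, so the share among the cholesterol genes was near the background. Their median log2 fold change was 0.049, beside 0.068 over all genes, and their median absolute change was 0.24, beside 0.32 over all genes. The 3 values of one group lay outside those of the other for 23 of the 31, beside 66.2% of all genes. Only Stard4 passed the threshold with a change of 2-fold or more, beside 6.93% of all genes.

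Scaling sets how many genes count as higher. With each array scaled to its 6 detected spike-in types, the median of all genes moved by -0.25, to -0.18, and 16 cholesterol genes were lower and 5 higher (background 53.7% called, 38.5% lower and 15.3% higher). Spike-in scaling shifts every gene alike, and 15 of the 31 lay above the median of all genes and 16 below it. With the slide as a block 7 were lower and 10 higher, against a background of 46.9% called, 18.3% lower and 28.7% higher. The fold changes of that fit equal those within slide 1, so both rest on control replicate 1 as the only control array beside the miR-29 arrays. Within slide 1, where that array is assumed to vary like the others, 7 were lower and 9 higher, against a background of 42.9% called. Dhcr7, Insig1, Insig2, Mvd, Sqle and Srebf2 were lower, and Idi1, Nr1h3, Srebf1 and Tm7sf2 higher, in all 3 of these fits.

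**Figure D1:**
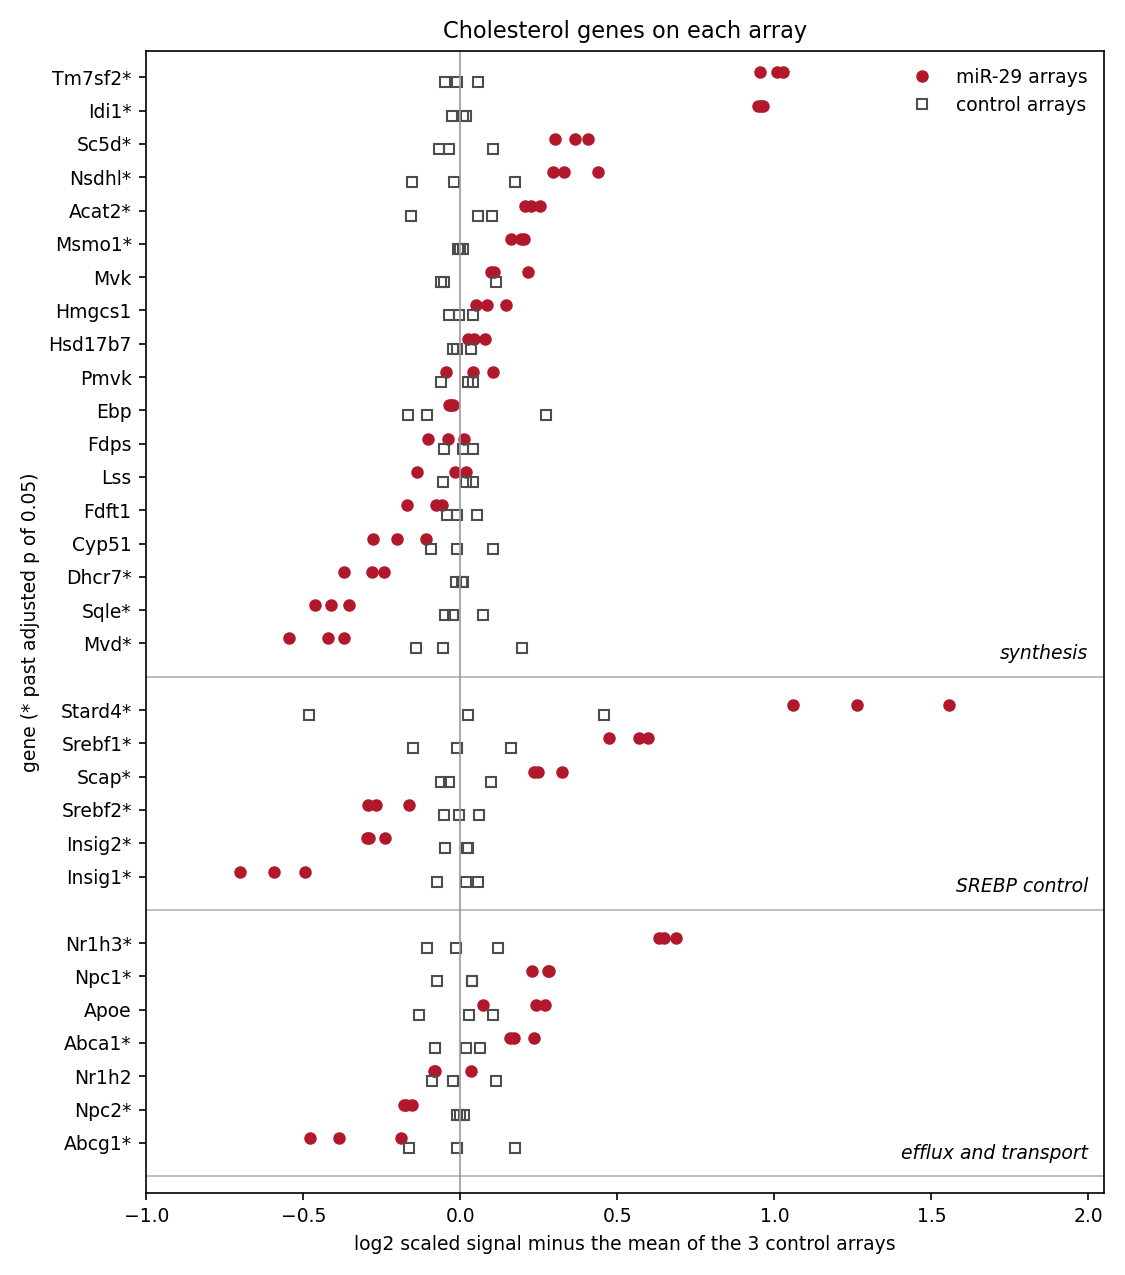
Level of each cholesterol gene on each array (x axis, log2, minus the mean of the 3 control arrays; 1 line per gene, ordered by fold change within its role). Filled circles are the 3 miR-29 arrays and open squares the 3 control arrays. Tm7sf2 and Idi1 have all miR-29 circles near 1 and far from the squares, whereas the squares of Stard4 spread over nearly 1 log2 unit.

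Among the 18 synthesis genes 6 rose and 3 fell, beside 35.3% and 22.8% of all genes. The other 9 did not pass, and the median of the 18 was 0.041. The largest rises were those of Tm7sf2 and Idi1, which were about 2-fold higher, and the falls of Mvd, Sqle and Dhcr7 were smaller. With spike-in scaling the count turned to 2 higher and 10 lower, beside 15.3% and 38.5% of all genes. The synthesis median turned to -0.21, beside -0.18 over all genes.

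The first steps join acetyl-CoA units and reduce them to mevalonate. Acat2, the cytosolic thiolase that makes acetoacetyl-CoA, had levels of 0.19, 0.16 and 0.14 on the miR-29 arrays, against -0.22, 0.038 and -0.0066 on the control arrays. The groups did not overlap, with control replicate 1 lowest, and the change of 0.23 (SE 0.077) passed at adjusted p = 0.0442. That call was lost without any 1 of the 3 miR-29 arrays (adjusted p = 0.0880 to 0.119) and without control replicate 3 (adjusted p = 0.0689), and the sign turned with spike-in scaling (-0.022). Hmgcs1, which makes HMG-CoA, stood at 5.75, 5.68 and 5.65 on the miR-29 arrays, against 5.64, 5.59 and 5.56 on the control arrays. Its 3 miR-29 values lay just above the control values, but the change of 0.094 did not pass (95% interval -0.028 to 0.22, adjusted p = 0.153), and it was -0.16 with spike-in scaling.

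Mevalonate is then phosphorylated and decarboxylated to isopentenyl diphosphate. Mvk, mevalonate kinase, changed by 0.14 on its brightest probe (adjusted p = 0.126), with control replicate 1 inside the miR-29 range, and by 0.24 on its other probe, which passed (adjusted p = 0.0109 over all probes). Without control replicate 1 the brightest probe passed as well (0.20, adjusted p = 0.0263), and with spike-in scaling it gave -0.11. Pmvk, phosphomevalonate kinase, changed by 0.033 (95% interval -0.11 to 0.18, adjusted p = 0.653), and its groups overlapped. Mvd, the decarboxylase that follows, fell: its level was 1.91, 1.74 and 1.86 on the miR-29 arrays, against 2.48, 2.23 and 2.14 on the control arrays. The lowest control array was still above the highest miR-29 array, and the change was -0.45 (SE 0.10, adjusted p = 0.0111).

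Idi1 and Mvd act on neighbouring steps and moved in opposite directions. Idi1, the isomerase that turns isopentenyl diphosphate into dimethylallyl diphosphate, stood at 4.89, 4.88 and 4.89 on the miR-29 arrays, against 3.94, 3.90 and 3.95 on the control arrays. The 2 groups were each tight and far apart. The change of 0.96 (SE 0.042, adjusted p = 4.55e-05) is a fold of 1.94, and a second, dimmer probe gave 0.88. Fdps, which makes farnesyl diphosphate, did not pass (-0.043, 95% interval -0.17 to 0.089, adjusted p = 0.517), and its groups overlapped.

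Squalene is formed, oxidised and closed into lanosterol by the next 3 enzymes. Fdft1, squalene synthase, had slightly lower miR-29 values that did not pass (-0.10, adjusted p = 0.155). Sqle, squalene epoxidase and a slow step of the pathway, had levels of 3.74, 3.63 and 3.68 on the miR-29 arrays, against 4.16, 4.04 and 4.07 on the control arrays. Every miR-29 array was below every control array, by -0.41 on average (SE 0.056, adjusted p = 0.00157). Lss, lanosterol synthase, overlapped between the groups (-0.046, adjusted p = 0.543).

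Lanosterol first loses a methyl group and the double bond this leaves behind. Cyp51, lanosterol demethylase, had a change below 0 on all 3 of its probes, of which 1 passed (-0.38, adjusted p = 0.00179 over all probes). Its brightest probe gave -0.20 (adjusted p = 0.0627), which passed without control replicate 1 (-0.24, adjusted p = 0.0307). Tm7sf2, a sterol C14 reductase that acts directly after Cyp51, rose: levels were 3.00, 2.97 and 2.92 on the miR-29 arrays, against 2.02, 1.92 and 1.96 on the control arrays. The groups were about 1 log2 unit apart, far more than the spread inside either. The change of 1.00 (SE 0.051, adjusted p = 6.01e-05) is a fold of 2.00, just under 2 before rounding.

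The remaining methyl groups and double bonds are handled by enzymes that include 6 of the listed genes. Of these, 3 rose and 1 fell, beside 35.3% and 22.8% of all genes. Msmo1, the C4 methyl oxidase, had levels of 6.70, 6.67 and 6.71 on the miR-29 arrays, against 6.51, 6.50 and 6.52 on the control arrays, a small rise of 0.19 (SE 0.042, adjusted p = 0.0108) between very tight groups that was -0.064 with spike-in scaling. Nsdhl, the C4 decarboxylating dehydrogenase, rose by 0.35 (SE 0.094, adjusted p = 0.0199), and its other probes rose by 0.43 and 0.58. The call on its brightest probe was lost without miR-29 replicate 1 or 3 or control replicate 2 (adjusted p = 0.0511, 0.0632 and 0.0579) and with spike-in scaling (0.10). Hsd17b7, the C3 ketosteroid reductase of the pathway, showed 0.049 on its brightest probe (adjusted p = 0.377) and 0.55 on the other, which passed (adjusted p = 0.0229 over all probes).

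Ebp, the sterol isomerase, had levels of 4.16, 4.15 and 4.15 on the miR-29 arrays, against 4.45, 4.08 and 4.02 on the control arrays. Control replicate 1 stood above all others and control replicates 2 and 3 below the miR-29 arrays, so the change was -0.030 (adjusted p = 0.842), but -0.30 in the fit with slide as a block (adjusted p = 0.00989). Sc5d, the C5 desaturase, rose by 0.36 (SE 0.064, adjusted p = 0.00448), with 0.11 under spike-in scaling (adjusted p = 0.232). Dhcr7, the reductase of a last step to cholesterol, fell: levels were 3.78, 3.65 and 3.74 on the miR-29 arrays, against 4.03, 4.03 and 4.01 on the control arrays. The groups did not overlap (-0.30, SE 0.051, adjusted p = 0.0037), and its second probe fell by 0.59 on the log2 scale.

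**Figure D2:**
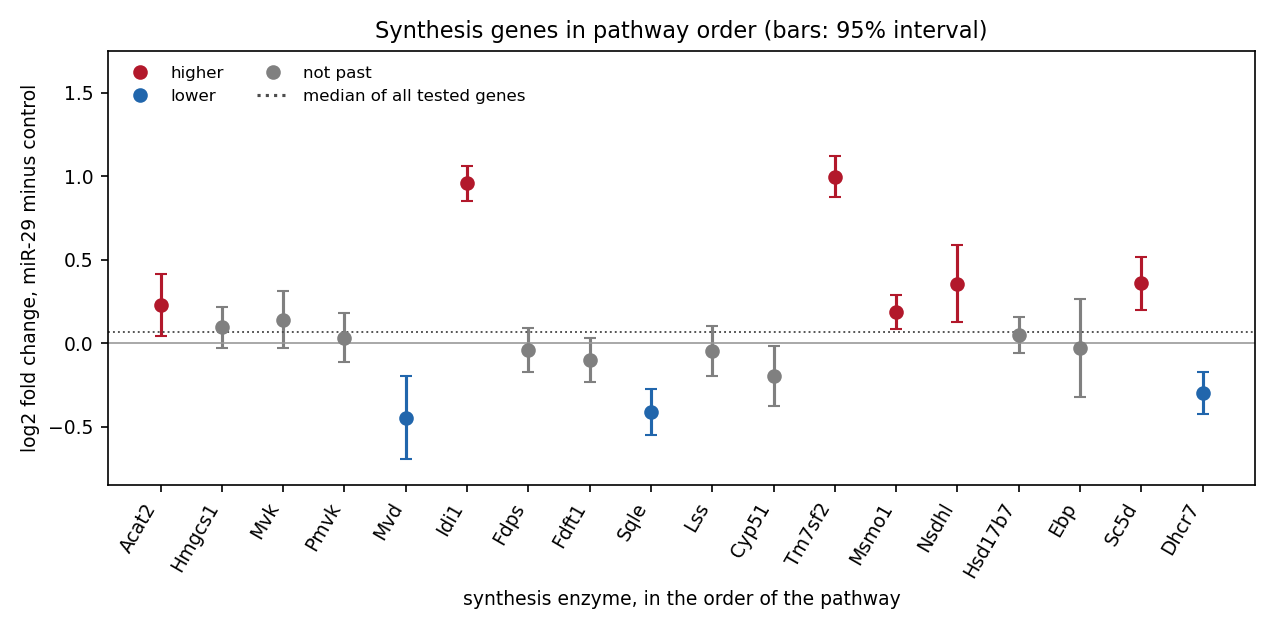
Log2 fold change, miR-29 minus control (y axis), of the 18 synthesis genes in the order of the pathway (x axis); bars are 95% intervals of the fit, n = 3 each. Colours mark genes past an adjusted p of 0.05. Higher and lower genes are interspersed along the pathway, with Mvd beside Idi1 and Cyp51 beside Tm7sf2; the interval of Cyp51 lies below 0 although its adjusted p is 0.0627.

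Promoters of the synthesis genes were read because these genes are known to be turned on together by SREBP, which binds sterol regulatory elements (SRE) next to sites for NF-Y, the CCAAT-binding factor. RefSeq windows from 250 bases before to 50 bases after the start were held for 25 of the 31 genes, 7 of them with several starts. On either strand, CCAAT was found in 14 of 15 synthesis genes (93.3%), 4 of 5 SREBP control genes (80%) and 1 of 5 efflux and transport genes (20%), beside 41.1% of 27025 genes. It was in 5 of the 6 synthesis genes that rose, both of those with a window that fell, and 7 of 7 that did not pass. TCACNCCAC, 1 form of the SRE, was found in Hmgcs1 alone, beside 1.44% of all genes, and no match of it overlapped a CCAAT. Such matches describe letters in these windows and not binding.

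The windows of 3 synthesis genes are printed, on the strand of the gene, to show that a gene that rose (Idi1), one that fell (Mvd) and one that did not pass (Hmgcs1) all hold CCAAT. Capitals mark CCAAT, or ATTGG where it is on the other strand, and in Hmgcs1 the 9-letter SRE match as well. In build GRCm38.p6 they lie at chr13:8885356-8885655 on the plus strand for Idi1, chr8:122443373-122443672 on the minus strand for Mvd and chr13:119690101-119690400 on the plus strand for Hmgcs1.
Idi1: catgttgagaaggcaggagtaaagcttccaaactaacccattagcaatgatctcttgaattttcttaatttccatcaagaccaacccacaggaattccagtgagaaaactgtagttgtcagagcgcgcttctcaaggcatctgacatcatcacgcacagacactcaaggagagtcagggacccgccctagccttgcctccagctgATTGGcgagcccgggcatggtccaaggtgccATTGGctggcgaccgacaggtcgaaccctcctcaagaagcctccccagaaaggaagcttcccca
Mvd: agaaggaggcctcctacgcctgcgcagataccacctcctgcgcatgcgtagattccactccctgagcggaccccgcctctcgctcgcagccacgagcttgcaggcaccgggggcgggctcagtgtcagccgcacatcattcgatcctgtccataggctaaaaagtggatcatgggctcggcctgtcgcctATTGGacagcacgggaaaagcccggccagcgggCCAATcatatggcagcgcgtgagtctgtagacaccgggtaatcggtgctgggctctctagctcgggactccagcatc
Hmgcs1: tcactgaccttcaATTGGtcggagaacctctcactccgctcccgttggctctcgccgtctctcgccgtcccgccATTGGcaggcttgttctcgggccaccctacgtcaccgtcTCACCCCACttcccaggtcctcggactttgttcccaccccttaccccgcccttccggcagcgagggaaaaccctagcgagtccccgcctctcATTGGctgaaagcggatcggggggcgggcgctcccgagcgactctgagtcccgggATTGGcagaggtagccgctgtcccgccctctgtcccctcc

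Idi1 and Mvd each hold 2 CCAAT matches and differed in the direction of their change. Hmgcs1 holds 4, together with the SRE match, and its change did not pass.

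The SREBP control genes all passed the threshold, 3 higher and 3 lower, beside 35.3% and 22.8% of all genes. Their median was 0.013, beside 0.068 over all genes. The genes for the transcription factors split: Srebf1 rose and Srebf2 fell. Both Insig genes fell, and Scap rose. The median of the SREBP control genes was -0.24 with spike-in scaling, under which 2 rose and 3 fell. All genes then had a median of -0.18, with 15.3% higher and 38.5% lower. With the slide as a block the median was -0.065, and 1 rose and 3 fell. The median of all genes was then 0.095, with 28.7% higher and 18.3% lower.

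Srebf1 encodes SREBP-1, whose main targets are genes of fatty acid synthesis. Its levels were 5.17, 5.14 and 5.04 on the miR-29 arrays, against 4.73, 4.56 and 4.42 on the control arrays. The groups were well apart, with control replicate 1 nearest to the miR-29 arrays, and the change was 0.55 (SE 0.090, adjusted p = 0.0031). Its 1 probe was not assigned to either of the known isoforms. Srebf2 encodes SREBP-2, the main activator of cholesterol synthesis. Its levels were 0.88, 0.91 and 1.02 on the miR-29 arrays, against 1.24, 1.13 and 1.17 on the control arrays. All miR-29 values were below all control values (-0.24, SE 0.058, adjusted p = 0.014), and a dimmer probe fell by 0.55 on the log2 scale. The call on the brighter probe was lost without miR-29 replicate 1 (-0.22, adjusted p = 0.0547) or replicate 2 (-0.23, adjusted p = 0.0517). It was also lost with median centring (-0.24, adjusted p = 0.0692).

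Scap, the escort of both SREBP proteins, stood at 5.06, 5.04 and 5.13 on the miR-29 arrays, against 4.91, 4.77 and 4.75 on the control arrays. The groups did not overlap, and the rise of 0.27 (SE 0.062) passed at adjusted p = 0.0117. With a block for slide it was 0.17 (adjusted p = 0.0765) and with spike-in scaling 0.018. In human glioblastoma cells miR-29 has been described as lowering SCAP and SREBP-1, which are higher here as messenger RNA under the 75th percentile scaling.

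The Insig genes encode the proteins that retain Scap in the endoplasmic reticulum. Insig1 had levels of -0.19, -0.078 and 0.020 on the miR-29 arrays, against 0.57, 0.53 and 0.44 on the control arrays. The lowest control array was well above the highest miR-29 array, and the change of -0.60 (SE 0.071, adjusted p = 0.000896) was the largest fall of the 31 genes, with -0.39 on its other probe. Insig2 was at 1.18, 1.24 and 1.19 on the miR-29 arrays, against 1.51, 1.43 and 1.50 on the control arrays. These groups did not overlap either (-0.28, SE 0.048, adjusted p = 0.0038), but the second probe, on another transcript accession, gave -0.15 and did not pass (adjusted p = 0.0844 over all probes).

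Stard4 encodes a small protein that carries sterol between membranes, and its gene is a known target of SREBP-2. Its brightest probe had levels of 1.70, 1.40 and 1.20 on the miR-29 arrays, against 0.60, 0.17 and -0.34 on the control arrays. The groups did not overlap, but the control arrays spread over nearly 1 log2 unit, and control replicate 1, on the slide of the miR-29 arrays, was the highest of them. The change of 1.29 (SE 0.25, adjusted p = 0.00639), a fold of 2.45, was the largest of the 31 genes. It was 0.84 with a block for slide (adjusted p = 0.0524) and 1.05 without control replicate 3. Its other probes, on the same accession, gave -0.082 (adjusted p = 0.302) and 0.0027 (adjusted p = 0.974), so the probes of Stard4 disagree, and the rise rests on 1 of 3.

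**Figure D3:**
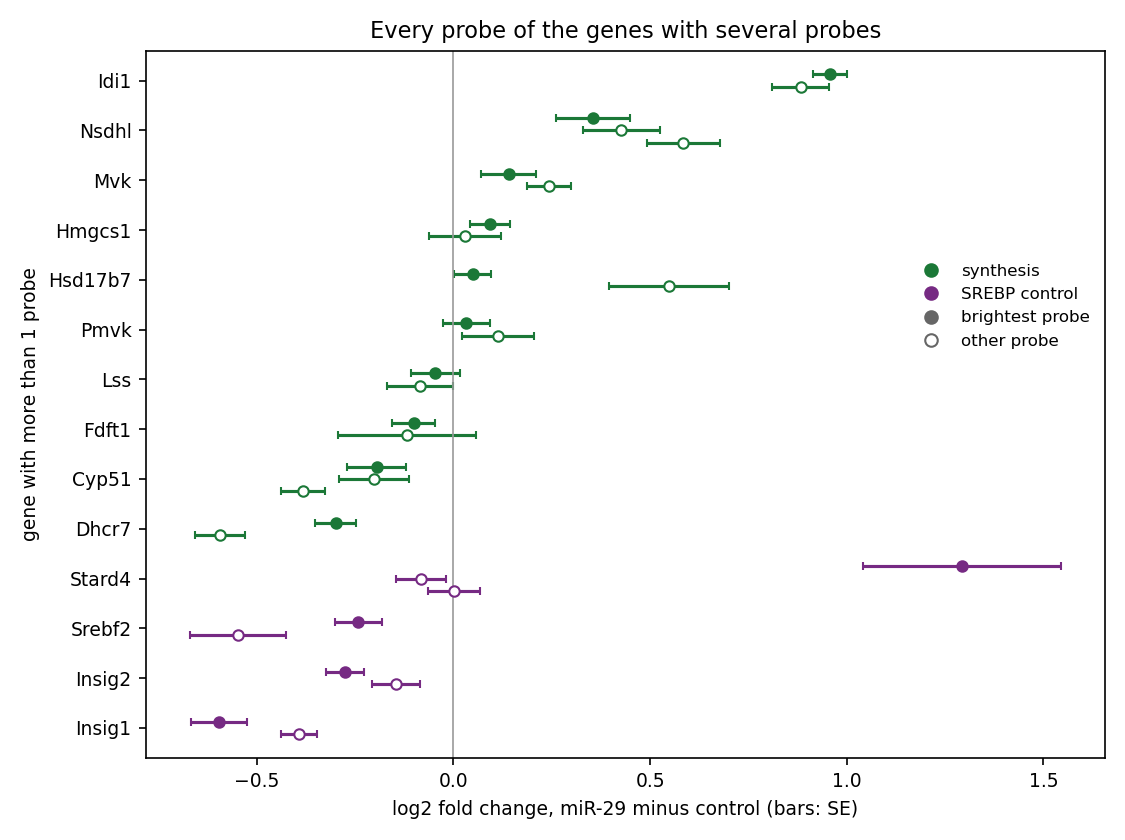
Log2 fold change, miR-29 minus control (x axis; bars are SE, n = 3 each), of every probe of the 14 cholesterol genes with more than 1 probe; filled circles are the brightest probe and open circles the others. The SE bars of the 2 probes overlap for Idi1 and Hmgcs1, while the brightest probe lies apart from the others for Stard4, Hsd17b7, Dhcr7, Srebf2, Insig1 and Insig2.

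Of the 7 efflux and transport genes, 3 rose and 2 fell, beside 35.3% and 22.8% of all genes. The other 2 did not pass, and the median of the 7 was 0.19. Nr1h3 stood out from the rest of the group, whose changes were all under 0.4 on the log2 scale in size. The median of the 7 was -0.063 with spike-in scaling, under which 1 rose and 3 fell, beside 15.3% and 38.5% of all genes. It was 0.090 with the slide as a block, under which 3 rose and 0 fell, beside 28.7% and 18.3% of all genes. The medians of all genes were -0.18 and 0.095 in these 2 settings. Microglia are known to express several of these genes. Their summed markers were lower on the miR-29 arrays, but the single markers were mixed. Of 4 tested, 2 fell, 1 rose (P2ry12, 0.53) and 1 did not pass. The brightest of the 4 was Tmem119, with a mean level of 1.66 on the miR-29 arrays, against 2.09 on the control arrays. This 1 gene made up most of the microglial sum. The astrocyte sum was 109 to 121 on the miR-29 arrays, against 76.9 to 80.5 on the control arrays. Of 12 astrocyte markers, 8 rose and 1 fell, beside 35.3% and 22.8% of all genes. The part of any such shift was not tested.

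Nr1h3 encodes liver X receptor alpha, an oxysterol-activated transcription factor. Its levels were 1.09, 1.04 and 1.06 on the miR-29 arrays, against 0.53, 0.39 and 0.30 on the control arrays. The miR-29 arrays were tightly grouped above all control arrays, with a change of 0.66 (SE 0.068, adjusted p = 0.00054) that was 0.41 with spike-in scaling. Nr1h2, for liver X receptor beta, overlapped between the groups (-0.044, 95% interval -0.22 to 0.13, adjusted p = 0.613).

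The transporters that export cholesterol to lipoproteins are targets of these receptors. Abca1, which loads lipid-poor apolipoproteins, had levels of 4.35, 4.36 and 4.43 on the miR-29 arrays, against 4.11, 4.21 and 4.25 on the control arrays. The lowest miR-29 array was only just above the highest control array. The change of 0.19 (SE 0.057) passed at adjusted p = 0.0312, a call lost without any 1 of the 3 miR-29 arrays or control replicate 2 (adjusted p = 0.0683 to 0.0914). The call was also lost with median centring (adjusted p = 0.0565), quantile normalization (adjusted p = 0.0907) and no filter on dim probes (adjusted p = 0.0871). With spike-in scaling the change was -0.063. Abcg1, which exports cholesterol to larger particles, was dim, at -4.39, -4.10 and -4.29 on the miR-29 arrays, against -4.07, -3.74 and -3.92 on the control arrays. The groups nearly touched, and the change of -0.35 (SE 0.11, adjusted p = 0.0386) lost its call with normexp background correction (-0.095, adjusted p = 0.418), with a block for slide (-0.19, adjusted p = 0.308) and without any of 4 arrays, namely miR-29 replicate 1 or 3 and control replicate 2 or 3 (adjusted p = 0.0897 to 0.114).

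Apoe, the main lipid carrier that astrocytes secrete, had levels of 6.38, 6.41 and 6.21 on the miR-29 arrays, against 6.24, 6.17 and 6.01 on the control arrays. miR-29 replicate 3 fell inside the control range, and the change of 0.19 did not pass (95% interval -0.017 to 0.41, adjusted p = 0.0993), and it was -0.055 with spike-in scaling. Npc1 and Npc2 together move cholesterol out of lysosomes, and they moved apart. Npc1 was at -1.11, -1.06 and -1.06 on the miR-29 arrays, against -1.41, -1.30 and -1.30 on the control arrays. The groups did not overlap, and the change was 0.26 (SE 0.053, adjusted p = 0.0069), but 0.013 with spike-in scaling. Npc2 was at 4.57, 4.54 and 4.55 on the miR-29 arrays, against 4.71, 4.73 and 4.72 on the control arrays, again with no overlap. Its change of -0.17 (SE 0.041, adjusted p = 0.0146) lost its call without miR-29 replicate 2 (adjusted p = 0.0531) or control replicate 2 (adjusted p = 0.0551). The same held with a block for slide (adjusted p = 0.0555) and with median centring (adjusted p = 0.0920).

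**Figure D4:**
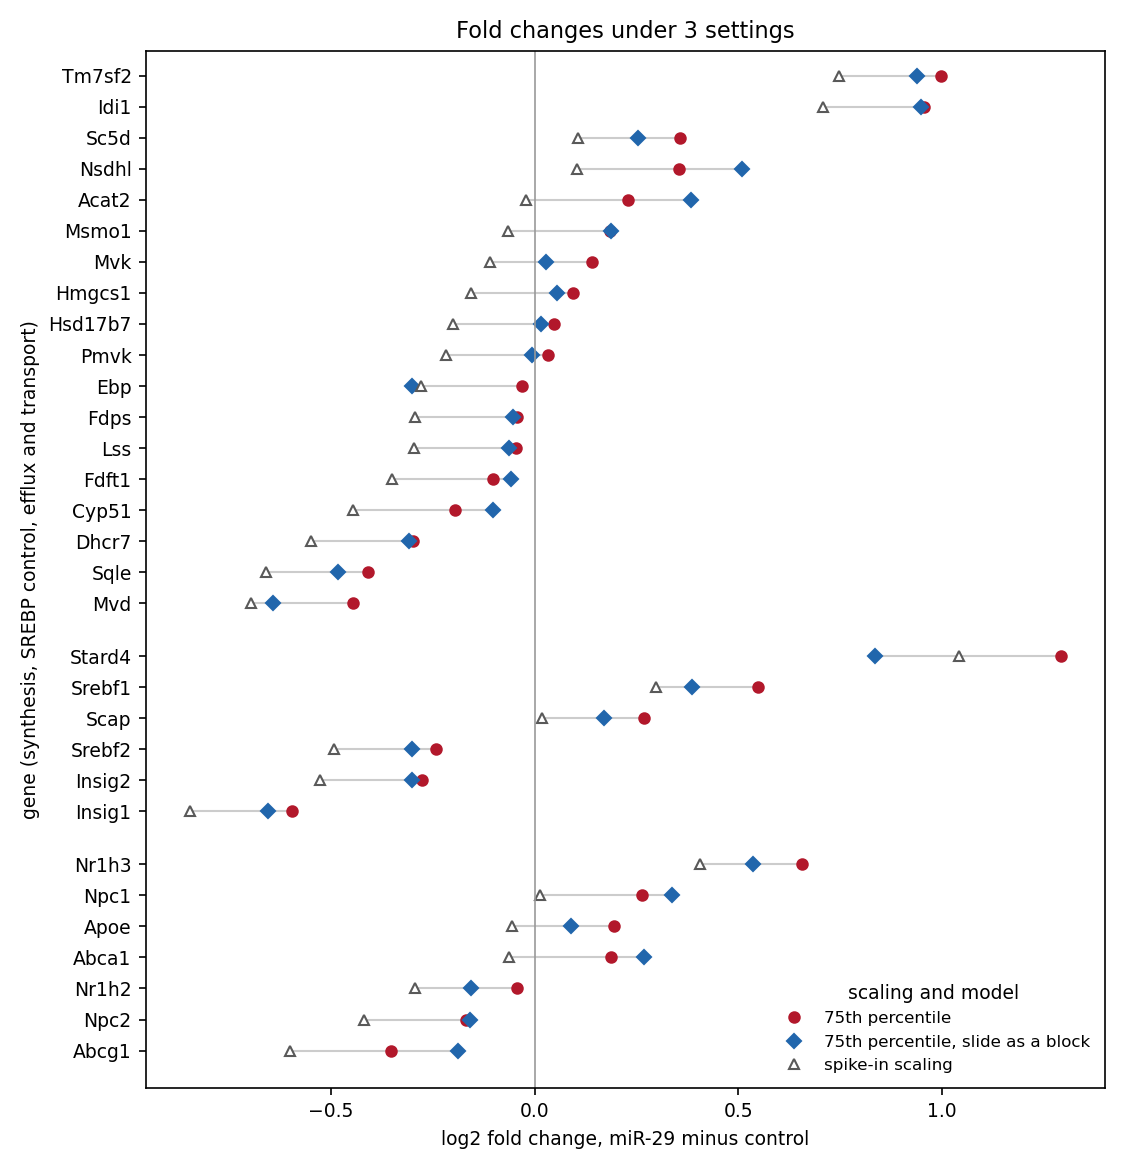
Log2 fold change, miR-29 minus control (x axis), of each of the 31 genes under 3 settings, by role from top to bottom: 75th percentile scaling (circles), the same with the slide as a block (diamonds) and spike-in scaling (triangles). The triangles lie about 0.25 to the left of the circles for every gene, so 9 of the 31 genes stay above 0. These are Stard4, Tm7sf2, Idi1, Srebf1 and Nr1h3, and, close to 0, Sc5d (0.11), Nsdhl (0.10), Scap (0.018) and Npc1 (0.013). The other genes with small rises cross 0.

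Set side by side, the 3 roles each held genes of both directions, and none had a median far from that of all genes (0.068). The medians were 0.041 for synthesis, 0.013 for SREBP control and 0.19 for efflux and transport. Their median absolute changes were 0.19, 0.41 and 0.20 in the same order, beside 0.32 over all genes. The share called was 50% for synthesis, 100% for SREBP control and 71.4% for efflux and transport, beside the background of 58.1%. No difference between the roles was tested.

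A further 37 genes of sterol metabolism, not among the 31, were read for comparison: 10 fell and 15 rose, while 12 did not pass, and the median was 0.061. The 67.6% called stands beside 58.1% of all genes, 22.8% lower and 35.3% higher. Among the largest falls were those of Ch25h, which makes 25-hydroxycholesterol (-1.29, adjusted p = 0.000176), and Osbp, the oxysterol-binding protein that exchanges sterol between the endoplasmic reticulum and the Golgi (-1.01, adjusted p = 6.09e-05). Lbr, which like Tm7sf2 encodes a sterol C14 reductase, changed by -0.86 (SE 0.067, adjusted p = 0.000193), while Tm7sf2 rose by 1.00. The largest rises were those of Cyp27a1, the sterol 27-hydroxylase (1.06, on a dim probe), Lipa, the lysosomal lipase that frees cholesterol from its esters (0.79), Erlin1, a protein of endoplasmic reticulum rafts (0.77), and Osbpl1a, an OSBP-related protein (0.72). A second probe of Osbpl1a gave 0.78 and did not pass (adjusted p = 0.0637 over all probes). The median of the 37 genes was -0.19 with spike-in scaling, under which 17 fell and 6 rose, beside 38.5% and 15.3% of all genes.

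Fatty acid synthesis genes, which SREBP-1 and liver X receptors are known to raise, were read beside Srebf1 and Nr1h3. Of 20 genes 11 rose and 2 fell, while 7 did not pass, and the median was 0.19. The 65% called is near the 58.1% of all genes (35.3% higher, 22.8% lower). The median was -0.063 with spike-in scaling, under which 5 genes each were higher and lower, beside 15.3% and 38.5% of all genes. Acacb, the acetyl-CoA carboxylase linked to mitochondria, rose by 1.30 (SE 0.083, adjusted p = 0.000102). Pnpla3, a lipase of lipid droplets, was not well above background on any control array and was at least 1.99-fold higher on the miR-29 arrays, a bound that uses, per control array, the higher of its own signal and the lowest signal detected. Its probe entered the test only through the miR-29 arrays, so its place among the 11 rises supports nothing. Acly, which makes cytosolic acetyl-CoA, rose by 0.64 (adjusted p = 0.000614), and Mid1ip1, an activator of acetyl-CoA carboxylase, by 0.52 (adjusted p = 0.00058). Thrsp, a relative of Mid1ip1, fell by 0.44 on the log2 scale (adjusted p = 0.0103), and Elovl6, a fatty acid elongase, by 0.36 (adjusted p = 0.00247).

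**Figure D5:**
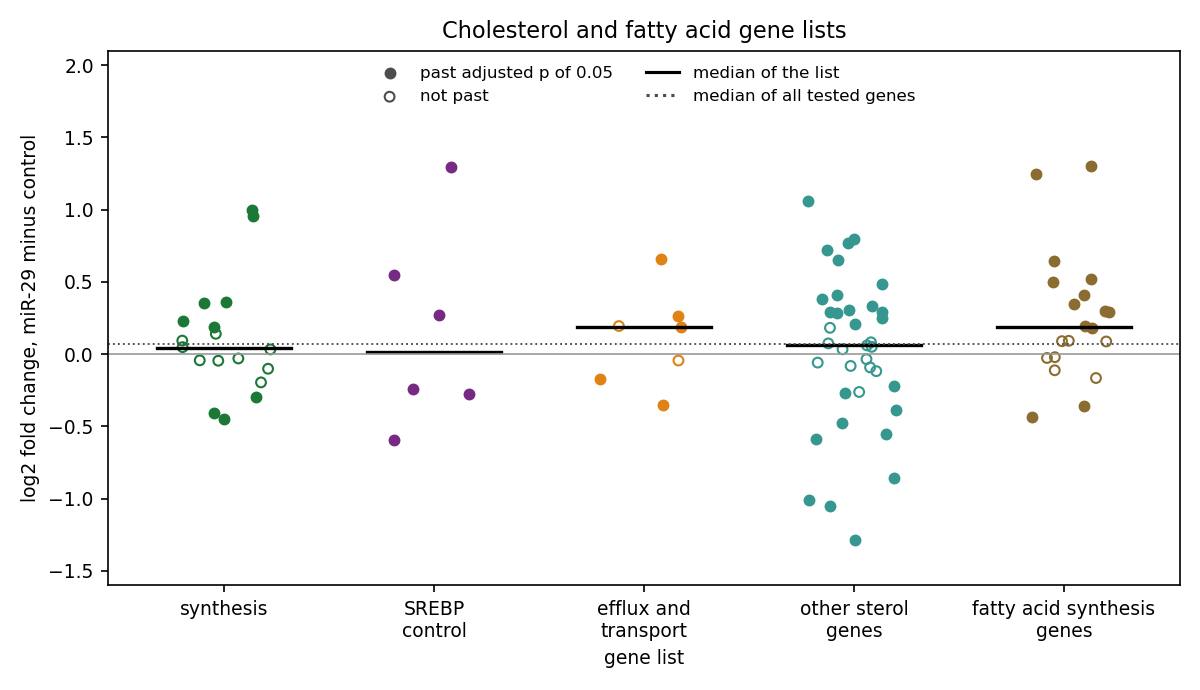
Log2 fold change, miR-29 minus control (y axis), of the genes of 5 lists (x axis; sideways spread only separates the points); filled points passed an adjusted p of 0.05, bars are list medians and the dotted line is the median of all tested genes, 0.068. Every list holds genes above and below 0, and the medians run from 0.013 to 0.19.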

How the data were processed

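Spot intensity had been extracted with Agilent Feature Extraction 10.7.3.1, per the file headers, which subtracts background and gives a linear processed signal. In the authors' deposited series table this intensity is multiplied by 1 factor per array (2.627 to 3.427), without log or centring; the sources used here do not give how that factor was set. Column medians were 148.8 to 155.4 on the miR-29 arrays and 146.3 to 164.8 on the control arrays. No column of another sample was found (0).

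Values here are the log2 of the processed signal minus the 75th percentile of each array over non-control probes. Control spots and flagged spots were left out. A probe was kept if, in at least 1 group, all 3 arrays had it well above background (26428 of 41174 probes). Probes were named by unversioned RefSeq accession through the table for GRCm38.p6: 26933 matched 1 gene and 14241 none. The brightest kept probe stands for a gene, and other probes are reported beside it with p adjusted over all probes. Groups were compared with limma 3.58.1 in R 4.3.3 (lmFit and eBayes, two-sided), Benjamini-Hochberg adjusted over all 19741 features with a threshold of 0.05. The number of arrays limits the precision. The procedure was tested on simulated data of 19737 genes. Of these, 19537 were left unchanged, far more than go uncalled in the real data, and 8 of them were called. Of genes given a log2 change of -0.25 or 0.25, 1 of 33 and 0 of 33 were called. The share was 52.9% and 60.6% at -0.5 and 0.5, and 79.4% and 87.9% at -1 and 1.

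The 31 genes and the comparison lists were chosen with earlier results of these data known. All 31 are named; from each comparison list the called genes with the largest changes are, up to 4 in each direction, except 1 that is not reported here. Alternatives were median centring, quantile normalization, spike-in scaling, normexp with offset 50 (on the median signal, since the files hold no mean signal), the deposited table, other filters, the mean of all probes, another variance model, slide or replicate number as a block, slide 1 alone, and each array left out in turn.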

Additional observations from a re-analysis of the deposited data

How the results depend on the processing

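Of the 8 genes called lower, 5 (Mvd, Sqle, Dhcr7, Insig1 and Insig2) kept direction and call under all 18 alternatives tried. Of the 12 called higher, 4 did (Idi1, Tm7sf2, Srebf1 and Nr1h3). The cause of the other changes was not tested. These 18 are not all separate checks. The deposited table differs by 1 factor per array, which the scaling removes. That table and the filter for probes well above background on all 6 arrays left the results of all 31 genes the same. Slide as a block and slide 1 alone share their fold changes. Spike-in scaling gave 16 lower and 5 higher, beside 38.5% and 15.3% of all genes. Its medians were -0.21 for synthesis, -0.24 for SREBP control and -0.063 for efflux and transport, beside -0.18 over all genes. It turned the sign of Hmgcs1 (-0.16), Acat2 (-0.022), Pmvk (-0.22), Msmo1 (-0.064), Hsd17b7 (-0.20), Abca1 (-0.063), Mvk (-0.11) and Apoe (-0.055). Quantile normalization moved the median of SREBP control to -0.055 and that of efflux and transport to 0.065. The slide as a block and slide 1 alone, where the single control array is assumed to vary like the others, both gave 0.0050 for synthesis, -0.065 for SREBP control and 0.090 for efflux and transport. With each array left out in turn, 6 to 9 genes were lower and 9 to 13 higher. Of all 19741 genes and transcripts, 3674 to 5736 were lower and 5674 to 7423 higher in these fits. The medians ran from 0.016 to 0.086 for synthesis, the highest without control replicate 1. They ran from -0.014 to 0.052 for SREBP control and from 0.13 to 0.20 for efflux and transport, the latter lowest without control replicate 3. The replicate numbers did not pair the arrays by the criterion used: deviations of same-numbered arrays correlated at 0.13, 0.094 and 0.24, although each array correlated best with its own number, which is a hint from the data and not from the design. With the replicate number as a block 9 of the 31 genes were lower and 12 higher (4524 and 6998 of all genes), medians were as reported, 0.041, 0.013 and 0.19, the call of Acat2 was lost (adjusted p = 0.0694), and Cyp51 (adjusted p = 0.0442) and Apoe (adjusted p = 0.0334) passed. With normexp the dim probe of Abcg1 gave -0.095 and lost its call, as did Acat2 (adjusted p = 0.0714) and Abca1 (adjusted p = 0.0515). Median centring lost the calls of Msmo1, Srebf2, Scap, Abca1 and Npc2 (adjusted p = 0.0504 to 0.0920). Without the filter on dim probes Acat2, Nsdhl, Abca1, Abcg1 and Npc2 lost theirs (adjusted p = 0.0514 to 0.104).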

Other observations

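The E box CACGTG, a sequence that SREBP proteins can bind besides the SRE, was found in the windows of 6 of 25 cholesterol genes (24%), beside 8.09% of 27025 genes. It was in 3 of 15 synthesis genes, 2 of 5 SREBP control genes and 1 of 5 efflux and transport genes, among them Insig1, which fell, and Abca1 and Scap, which rose. A strict form of the liver X receptor element, an exact direct repeat of AGGTCA with 4 bases between, was searched as well. It was found in 0 of the 25 windows, beside 4 of 27025 genes (0.0148%). A string so rare cannot show whether these genes hold other forms of the element. Both were searched on either strand, and the windows cover only 250 bases before to 50 bases after the start. These are letter matches, with no measurement of binding.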
